A study of Mus musculus with 24 samples.

Results

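The mitochondrial ribosomal protein genes were taken as all genes whose mouse symbol is Mrpl or Mrps followed by a number, where Mrpl stands for the large and Mrps for the small subunit, with exceptions such as Mrps18a and Mrps30, whose proteins sit in the large one. Of the 9420 genes in the deposited table, 74 met this rule, 48 with an Mrpl symbol and 26 with an Mrps symbol. They lie on 17 chromosomes. A further 4 genes of the family, Mrpl53, Mrps10, Mrps33 and Mrps36, were not analysed here. All 74 passed the filter on low values in every kind of library, although Mrpl23 passed it among ribosome profiling libraries through a single library that is described below.

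Mitochondrial ribosomes translate the few proteins encoded by mitochondrial DNA, all of them subunits of the respiratory chain and ATP synthase. Their own proteins are encoded in the nucleus, made in the cytosol and imported, so that a mitochondrial ribosome depends on many separate nuclear genes. In mammals its RNA is much shorter than in bacteria, and many proteins of the particle have no bacterial counterpart. In T cells, activation through the receptor is known to be followed by growth of the mitochondrial compartment.

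Effector CD4+ T cells of the Th1 type, from the mouse strain DO11.10, were restimulated on plates coated with an antibody to hamster immunoglobulin, with soluble anti-CD3 at 1 µg/ml and soluble anti-CD28 at 2.5 µg/ml. Newly made RNA, captured through the label 4-thiouridine (4sU), total RNA, and fragments protected by ribosomes (ribosome profiling, RP) were sequenced in 24 libraries. Labelling with 200 µM 4sU for 1 h was done in duplicate for 0, 1 and 4 h and singly for 2 and 3 h. For total RNA the times 4 h and 0 h were in duplicate and 1 and 2 h single, and for RP the times 0, 1 and 4 h were in duplicate and 0.5 and 2 h single. Shorter labelling, with 500 µM for 0.5 h, was done once at 0.5 h and once at 0 h. All groups share the strain and the Th1 culture, and the comparisons are with cells before restimulation, not with cells kept unstimulated for the same hours.

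Values were FPKM, fragments scaled to the length of the gene model and to the size of the library, so each is a level relative to the rest of its library. In bulk cultures, fewer cells of a type and less RNA per cell cannot be told apart. The T cell markers Cd3e and Cd4 and the Th1 regulator Tbx21 were present in the 4sU and total RNA libraries at 4 h and 0 h. Of the list of 10 Th1 and T cell markers, none was at 0, and in 4sU RNA at 4 h 1 was called higher (Ifng) and 5 lower (Cd3d, Cd3g, Cd4, Cxcr3 and Stat4). Cxcr3, a chemokine receptor of Th1 cells, had 3.30 and 5.49 FPKM at 4 h, against 59.7 and 38.5 FPKM at 0 h. CD8 T cell and NK cell markers summed higher in replicate 1 than in replicate 2 at both times, and B cell markers did so at 0 h. Macrophage and dendritic cell markers also did so at 0 h, and at 4 h in total RNA and RP but not in 4sU RNA. In total RNA the summed FPKM of 6 CD8 T cell markers was 434 and 60.2 at 4 h, against 317 and 23.1 at 0 h, in replicates 1 and 2. The sum of the 4 measured B cell markers of 5 was 2.33 and 2.50 at 4 h, against 13.5 and 2.78 at 0 h. That of 5 measured macrophage and dendritic cell markers of 9 was 15.0 and 16.1 at 4 h, against 35.8 and 14.9 at 0 h in 4sU RNA, and in total RNA that of 3 measured NK cell markers of 5 was 198 and 89.9 at 4 h, against 144 and 86.2 at 0 h. No measured marker of these lists was at 0 in these groups. The part of these cells in the results below was not tested.

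At 4 h, newly transcribed RNA of 17 mitochondrial ribosomal protein genes was higher than at 0 h and that of 2 was lower (limma on log2(FPKM + 1), Benjamini-Hochberg adjusted p below 0.05 over all 9278 genes tested). Over all genes tested, 14.4% were called higher and 18.9% lower. The genes called higher were Mrpl3, Mrpl11, Mrpl12, Mrpl15, Mrpl16, Mrpl17, Mrpl19, Mrpl20, Mrpl21, Mrpl38, Mrpl50, Mrpl52, Mrps2, Mrps6, Mrps18b, Mrps27 and Mrps30, and those called lower were Mrpl27 and Mrpl58. The median change of the 74 was 0.40 on the log2 scale, against -0.16 over all genes. In 42 of the 74 both libraries at 4 h lay above both at 0 h (28.7% of all genes), and in 7 they lay below (42.3% of all genes).

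Mrps18b, one of the mammalian homologues of the bacterial small subunit protein S18, showed the largest change among the 74 in 4sU RNA. Its gene (ENSMUSG00000024436) lies at chr17:35910379-35916389 on the minus strand of GRCm38. Its 4sU level was 64.8 and 45.2 FPKM at 4 h, against 17.5 and 9.56 FPKM at 0 h in replicates 1 and 2. The change was 1.98 ± 0.36 on the log2 scale (standard error, adjusted p = 0.010). Both libraries at 4 h stood well above both at 0 h.

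Mrpl12, the protein of the flexible stalk that recruits translation factors, is encoded at chr11:120484613-120489065 (plus strand). It had 94.8 and 51.7 FPKM of 4sU RNA at 4 h, against 26.3 and 15.5 FPKM at 0 h. The change was 1.74 ± 0.39 (adjusted p = 0.019). Replicate 1 was the higher at both times, and the groups did not overlap.

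Mrpl17, a large subunit protein with a bacterial counterpart (chr7:105803206-105811099, minus strand), had 21.98 and 16.9 FPKM at 4 h, against 6.56 and 5.36 FPKM at 0 h (change 1.55 ± 0.23, adjusted p = 0.0061). Mrpl52, a large subunit protein found only in mitochondria, had 38.3 and 20.9 FPKM at 4 h, against 11.98 and 7.56 FPKM at 0 h (change 1.48 ± 0.42, adjusted p = 0.040). Mrps6, the homologue of bacterial S6 (chr16:92058270-92112227, plus strand), had 36.9 and 21.9 FPKM at 4 h, against 13.6 and 7.24 FPKM at 0 h (change 1.42 ± 0.36, adjusted p = 0.028). In all 3 genes the groups did not overlap, and in all 3 replicate 1 was the higher library at both times.

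How many of the 74 were called depended on single libraries and on the use of the replicate number. Fits without 1 library had fewer residual degrees of freedom, so only their medians are given here. The median change of the 74 was 0.23 without the 4 h library of replicate 1, against -0.11 over all genes. It was 0.61 without that of replicate 2, against -0.20. Without the 0 h library of replicate 1 it was 0.45, against -0.17, and without that of replicate 2 0.46, against -0.13. Under a block for the replicate number, 35 were called higher and 3 lower, where 23.3% and 35.4% of all genes were.

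Promoters are shown for 3 of the 6 genes called higher at 4 h in 4sU RNA, total RNA and RP. Mrpl58, which was called lower in 4sU RNA and RP, is shown as well. The 3 were not picked by a stated rule. So few promoters cannot show whether a motif goes with the direction of change. The stretches are from RefSeq on GRCm38.p6 and end just before the annotated start of the gene. Capitals mark matches, on either strand, to any of 6 motifs: the E-box CACGTG, the ETS core CCGGAAG, the NRF1 motif (GCGC, any base, then TGCGC), the GC box GGGCGG, the CCAAT box and the YY1 motif AAGATGG. The NRF1 motif is named for nuclear respiratory factor 1, known as a regulator of nuclear genes for mitochondrial proteins.
Mrpl12 (chr11:120484387-120484612, plus strand, 226 bases): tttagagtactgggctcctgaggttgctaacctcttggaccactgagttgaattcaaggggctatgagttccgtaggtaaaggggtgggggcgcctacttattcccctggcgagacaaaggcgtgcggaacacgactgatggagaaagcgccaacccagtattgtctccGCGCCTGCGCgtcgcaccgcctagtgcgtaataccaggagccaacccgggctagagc
Mrpl17 (chr7:105811100-105811337, minus strand, 238 bases): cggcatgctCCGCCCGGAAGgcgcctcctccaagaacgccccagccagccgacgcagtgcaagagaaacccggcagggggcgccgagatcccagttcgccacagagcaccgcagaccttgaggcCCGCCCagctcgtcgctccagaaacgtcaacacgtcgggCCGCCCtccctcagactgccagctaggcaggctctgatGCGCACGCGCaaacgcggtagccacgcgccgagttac
Mrps2 (chr2:28467816-28468065, plus strand, 250 bases): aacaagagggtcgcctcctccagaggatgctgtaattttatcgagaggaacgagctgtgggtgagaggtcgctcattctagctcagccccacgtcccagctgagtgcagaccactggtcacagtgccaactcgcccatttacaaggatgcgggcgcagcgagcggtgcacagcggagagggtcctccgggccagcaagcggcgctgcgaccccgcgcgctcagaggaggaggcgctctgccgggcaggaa
Mrpl58 (chr11:115403502-115403751, plus strand, 250 bases): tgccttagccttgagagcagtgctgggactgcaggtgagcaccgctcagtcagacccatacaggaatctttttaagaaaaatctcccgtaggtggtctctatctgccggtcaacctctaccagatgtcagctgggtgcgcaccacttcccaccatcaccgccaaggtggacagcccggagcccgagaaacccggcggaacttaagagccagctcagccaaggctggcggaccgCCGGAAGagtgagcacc
Mrpl12 and Mrpl17 each hold an NRF1 match, Mrpl17 also an ETS match that overlaps a GC box and 2 further GC boxes, Mrpl58 an ETS match, and Mrps2 none of the 6.

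A RefSeq promoter was found for 65 of the 74 genes, and motifs were counted in the 300 bases that run from 250 before to 50 after the start. The ETS core was in 35.4% of the 65, against 21.7% of the 7562 promoters of all genes in the table. The NRF1 motif was in 20.0%, against 12.1%, and the YY1 motif in 20.0%, against 8.3%. The GC box was in 49.2%, against 67.0%, the E-box in 7.7%, against 10.9%, and the CCAAT box in 36.9%, against 39.6%. Among the 14 promoters of genes called higher in 4sU RNA at 4 h, 6 held the ETS core and 2 the NRF1 motif. The YY1 motif was in 2, the GC box in 3 (21.4%), the E-box in 1 and the CCAAT box in 5. The 2 with the NRF1 motif (14.3%, against 20.0% of the 65) were Mrpl12 and Mrpl17, both shown above. A match is a run of letters in this window and does not show that a factor binds there.

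**Figure D1:**
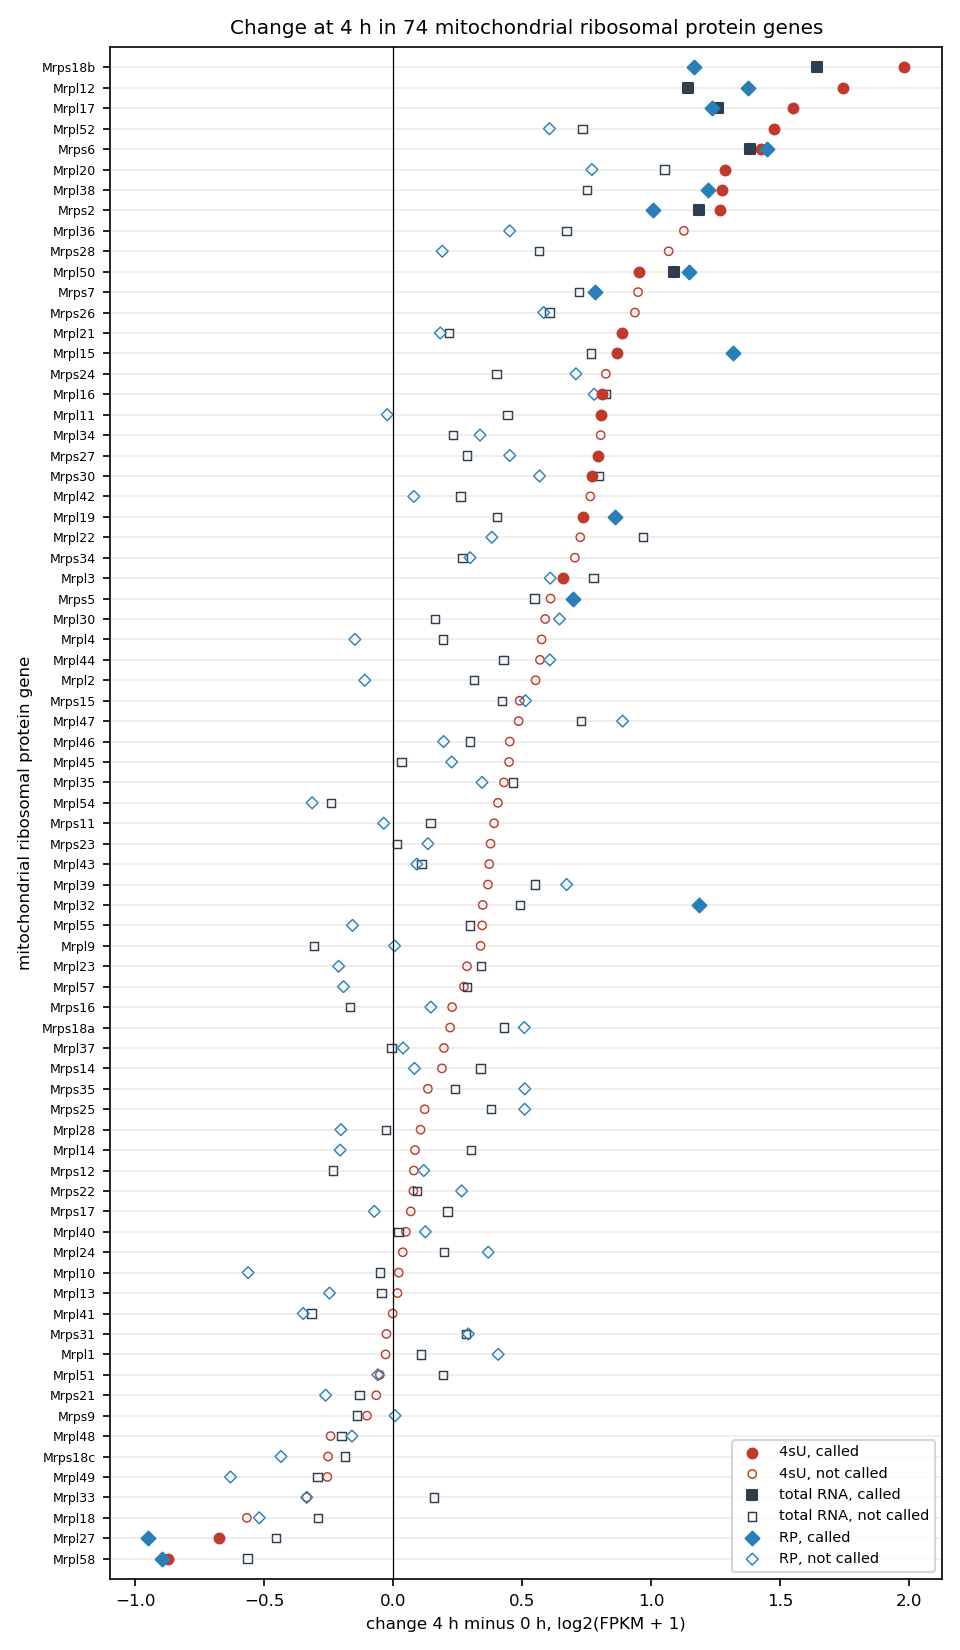
Change at 4 h minus 0 h on the log2(FPKM + 1) scale (horizontal axis) for each of the 74 mitochondrial ribosomal protein genes (vertical axis), in 4sU RNA, RP and total RNA, with filled symbols for genes called at an adjusted p below 0.05. Genes are ordered by the change in 4sU RNA, with Mrps18b at 1.98 at the top and Mrpl58 at -0.87 at the bottom.

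In total RNA, 6 of the 74 genes rose and 0 were called lower at 4 h (limma, 6.47% of 9078 genes tested called higher and 7.02% lower; 16 of the 74 and 32.1% of all genes had an unadjusted p below 0.05). The 6 were Mrps18b, Mrps6, Mrpl17, Mrps2, Mrpl12 and Mrpl50, all of which had also risen in 4sU RNA. The median change of the 74 was 0.29, against -0.10 over all genes. In 32 of the 74 both libraries at 4 h lay above both at 0 h (25.3% of all genes), and in 9 they lay below (36.7%).

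Mrps18b had 23.8 and 14.6 FPKM in total RNA at 4 h, against 5.73 and 4.89 FPKM at 0 h (change 1.64 ± 0.28, adjusted p = 0.017). Mrps6 had 39.0 and 24.0 FPKM at 4 h, against 14.4 and 8.53 FPKM at 0 h (change 1.39 ± 0.34, adjusted p = 0.041). Both genes had their higher value in replicate 1 at each time. Part of the exon sequence of Mrps6, 19.9%, is shared with genes annotated on the same strand, among them Slc5a3, and 30.5% of that of Mrps18b is shared with Gm16279 on the other strand. The strand setting of the counting is not given in the sources used here, so reads of Mrps18b and Gm16279 cannot be told apart.

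Mrpl17 had 9.54 and 7.87 FPKM in total RNA at 4 h, against 2.89 and 3.19 FPKM at 0 h (change 1.26 ± 0.22, adjusted p = 0.017). Mrps2, the homologue of bacterial S2 (chr2:28468066-28471178, plus strand), had 21.2 and 15.9 FPKM at 4 h, against 6.80 and 8.32 FPKM at 0 h (change 1.18 ± 0.24, adjusted p = 0.026). Mrpl12 had 49.7 and 31.4 FPKM at 4 h, against 18.8 and 15.98 FPKM at 0 h (change 1.14 ± 0.28, adjusted p = 0.043). The groups did not overlap in any of these genes, and replicate 1 was the higher library at 4 h in each.

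These total RNA calls were few and depended on which libraries were in the fit. Leaving out 1 library lowered the 2 residual degrees of freedom, so a lost call does not by itself show a smaller change. With 1 left out, the change ran from 1.31 to 1.98 for Mrps18b, 1.04 to 1.73 for Mrps6 and 1.14 to 1.38 for Mrpl17. It ran from 0.99 to 1.38 for Mrps2, 0.82 to 1.47 for Mrpl12 and 0.99 to 1.19 for Mrpl50. The median of the 74 was 0.09 without the 4 h library of replicate 1, against -0.125 over all genes. Without that of replicate 2 it was 0.47, against -0.09. A block for the replicate number gave 21 called higher and 1 called lower (16.6% and 23.3% of all genes). Scaling the libraries by the median of ratios moved both medians at 4 h. It put the median of all genes at -0.009 in 4sU RNA, 0.005 in total RNA and -0.019 in RP. That of the 74 was then 0.56, 0.39 and 0.33.

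In ribosome-protected fragments, 12 of the 74 rose and 2 fell at 4 h (12.1% of 9312 genes tested called higher and 12.9% lower). The genes called higher were Mrpl12, Mrpl15, Mrpl17, Mrpl19, Mrpl32, Mrpl38, Mrpl50, Mrps2, Mrps5, Mrps6, Mrps7 and Mrps18b, and those called lower were again Mrpl27 and Mrpl58. The median change of the 74 was 0.25, against -0.10 over all genes. In 33 of the 74 both 4 h libraries lay above both 0 h libraries (29% of all genes), and in 11 they lay below (36.8%).

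Mrps6 had 260 and 242 RP FPKM at 4 h, against 113 and 73.5 RP FPKM at 0 h (change 1.45 ± 0.25, adjusted p = 0.013). Mrpl12 had 184 and 172 RP FPKM at 4 h, against 63.5 and 72.8 RP FPKM at 0 h (change 1.38 ± 0.18, adjusted p = 0.0071). The groups did not overlap in either gene. Replicates of Mrpl12 were close to each other, while those of Mrps6 were apart at 0 h.

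Mrpl15, a large subunit protein with a bacterial counterpart, had 121 and 104 RP FPKM at 4 h, against 40.0 and 49.4 RP FPKM at 0 h (change 1.32 ± 0.19, adjusted p = 0.0087). Mrpl17 had 85.0 and 123 RP FPKM at 4 h, against 39.0 and 47.3 RP FPKM at 0 h (change 1.24 ± 0.25, adjusted p = 0.019). Mrpl38, a mitochondria-specific large subunit protein, had 44.3 and 31.7 RP FPKM at 4 h, against 16.8 and 14.4 RP FPKM at 0 h (change 1.22 ± 0.22, adjusted p = 0.016). All these genes had 4 h libraries clear of the 0 h libraries, and replicate 2 was the higher in Mrpl17.

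The RP calls also depended on single libraries. The median RP change of the 74 was 0.30 without the 4 h library of replicate 1, against -0.05 over all genes. Without that of replicate 2 it was 0.23, against -0.15. Without the 0 h library of replicate 1 it was 0.12, against -0.10, and without that of replicate 2 0.38, against -0.09. With the replicate number as a block 25 of the 74 were called higher and 4 lower (21.3% and 26.7% of all genes).

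Mrpl58 and Mrpl27 went the other way. Mrpl58, also known as Ict1, is a peptidyl-tRNA hydrolase within the large subunit that releases stalled chains, encoded at chr11:115403752-115412674 (plus strand). Its 4sU level was 8.53 and 5.29 FPKM at 4 h, against 13.8 and 12.5 FPKM at 0 h (change -0.87 ± 0.24, adjusted p = 0.038). Its RP level was 69.1 and 57.7 FPKM at 4 h, against 130 and 107 FPKM at 0 h (change -0.90 ± 0.22, adjusted p = 0.036). In total RNA it was 7.82 and 6.17 FPKM at 4 h and 12.6 and 9.13 FPKM at 0 h, a change of -0.56 ± 0.25 that did not pass (adjusted p = 0.17) but passed with the replicate number as a block (adjusted p = 0.031).

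Mrpl27, the homologue of a bacterial protein that reaches toward the peptidyl transferase centre (chr11:94653767-94660089, plus strand), had 20.5 and 15.2 FPKM of 4sU RNA at 4 h, against 30.7 and 27.0 FPKM at 0 h (change -0.67 ± 0.20, adjusted p = 0.042). Its RP level was 54.0 and 49.7 FPKM at 4 h, against 100.02 and 102 FPKM at 0 h (change -0.95 ± 0.21, adjusted p = 0.026). Its total RNA level was 16.2 and 17.4 FPKM at 4 h and 26.8 and 20.3 FPKM at 0 h, a change of -0.46 ± 0.24 (adjusted p = 0.24). The groups did not overlap in any of the 3 kinds of library for either gene. With median-of-ratios scaling neither was called lower in 4sU RNA, and in RP Mrpl27 was called (adjusted p = 0.039) and Mrpl58 was not (adjusted p = 0.058). Without any 1 of the 4 RP libraries compared, neither was called lower in RP, where the changes ran from -1.01 to -0.89 for Mrpl27 and from -1.03 to -0.76 for Mrpl58. In 4sU RNA both calls were lost without the 4 h library of replicate 2 or either 0 h library.

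**Figure D2:**
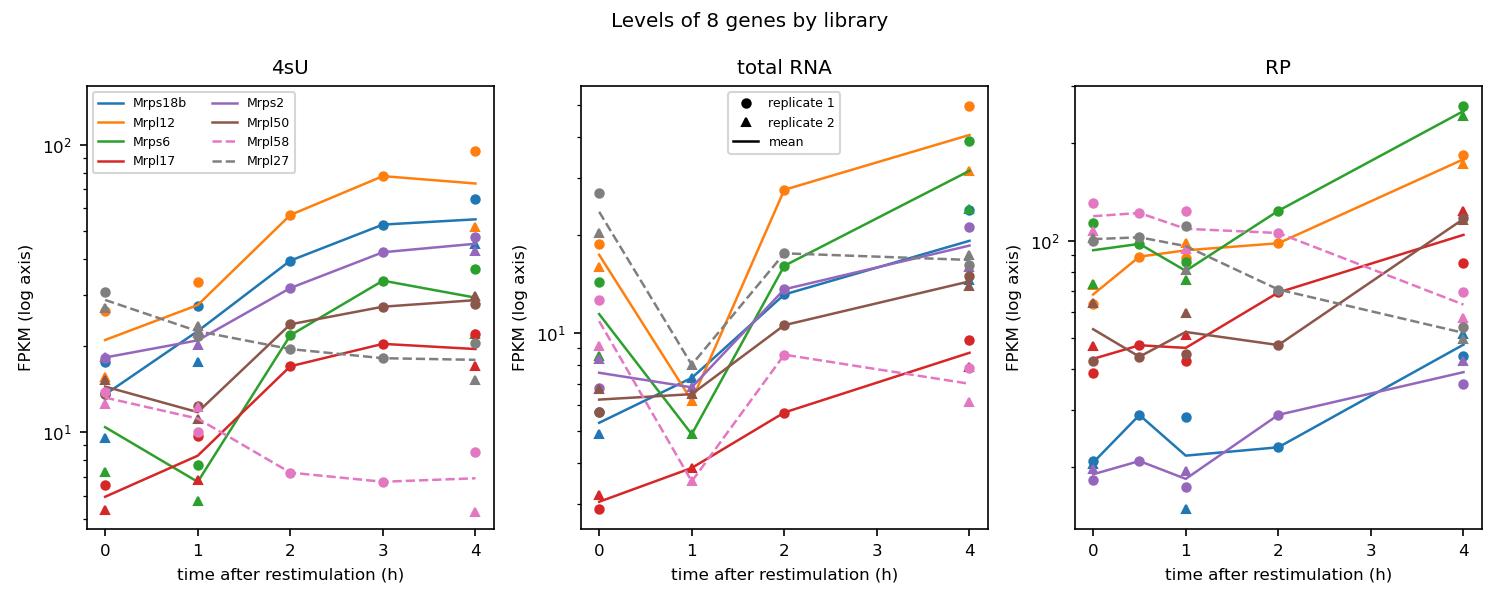
FPKM on a log axis against hours after restimulation for the 6 genes called higher at 4 h in all 3 kinds of library (solid lines) and for Mrpl58 and Mrpl27 (dashed lines), with circles for replicate 1, triangles for replicate 2 and lines through the means. In 4sU RNA Mrps6 is lower at 1 h than at 0 h in each replicate and higher at 4 h, while Mrpl58 and Mrpl27 end below their start.

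Across the 74 genes the changes at 4 h were alike in the 3 kinds of library. Spearman's rho across genes was 0.805 between 4sU and total RNA, 0.745 between 4sU RNA and RP, and 0.813 between total RNA and RP. Genes are not independent replicates, and the kinds of library may come from the same cultures, so these values only describe. The change was above 0 in all 3 kinds for 44 genes and below 0 in all 3 for 8 genes, which were Mrpl18, Mrpl27, Mrpl41, Mrpl48, Mrpl49, Mrpl58, Mrps18c and Mrps21.

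The difference between the changes was tested directly. None of the 74 was called for a different change in 4sU than in total RNA, or in RP than in total RNA (limma interaction, 0% of 9033 and 0% of 9021 genes called). At an unadjusted p below 0.05 the counts among the 74 were 0 and 1, where 5.82% and 2.67% of all genes were. With the replicate number as a block 0 of the 74 were called in either test (1.69% of all genes higher and 0.277% lower in the 4sU test, 0.0222% and 0.0111% in the RP test). That gene was Mrpl32, whose large subunit protein is cut by a mitochondrial protease before it joins the ribosome. Its RP level was 145 and 158 FPKM at 4 h, against 61.7 and 70.5 FPKM at 0 h, while its total RNA level was 27.3 and 31.9 FPKM at 4 h, against 21.2 and 20.2 FPKM at 0 h. The RP change exceeded the total RNA change by 0.70 ± 0.24 on the log2 scale, with an unadjusted p of 0.019 and an adjusted p of 1.00.

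The 4sU series was tested at each hour, with 2 libraries at 1 and 4 h and 1 library at 2 and 3 h, so the counts at different hours are not set against each other. At 1 h, 0 genes were called in either direction (limma, 0.183% of all genes called higher, 0% lower; 5 of the 74 and 13.3% of all genes at an unadjusted p below 0.05). At 2 h 1 was higher and 0 lower (3.87% and 3.69% of all genes), and at 3 h 9 were higher and 0 lower (9.41% and 10.7%). The gene called at 2 h was Mrpl17. The 9 at 3 h were Mrps18b, Mrpl12, Mrps6, Mrpl17, Mrpl38, Mrps2, Mrpl50, Mrpl15 and Mrps30. The 2 h and 3 h groups were 1 library of replicate 1 each. The calls at 2 and 3 h were not kept when either 0 h library was left out, which left 1 library in each group compared. With the replicate number as a block the 2 h count was 10 rises and 1 fall (13.3% and 17.7% of all genes), and the 3 h count 24 rises and 2 falls (17.8% and 25.2%).

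Within replicate 1 alone, 4sU RNA of Mrpl12 was 26.3, 33.2, 56.9, 77.7 and 94.8 FPKM at 0, 1, 2, 3 and 4 h. Mrps18b was 17.5, 27.4, 39.5, 52.7 and 64.8 FPKM at the same times. Both were higher at each successive time. Mrpl17 was 6.56, 9.73, 17.0, 20.3 and 21.98 FPKM, with its steepest step between 1 and 2 h.

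Some genes had lower values early. In the short-label pair, 2 of the 74 were at least 2-fold lower at 0.5 h than at 0 h and 0 were at least 2-fold higher (0.244% and 0.669% of all genes). With 1 library a time there is no replicate check. These were Mrpl34, a large subunit protein with a bacterial counterpart, with 4.73 FPKM at 0.5 h against 13.0 FPKM at 0 h, and Mrpl14, likewise a large subunit protein, with 2.96 FPKM at 0.5 h against 7.15 FPKM at 0 h. The next lowest was Mrps6, with 4.68 FPKM at 0.5 h against 9.44 FPKM at 0 h. Apart from Mrpl34, the genes of this paragraph and the next were chosen after their values were seen.

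The separate 1 h labelling gave values in the same direction. Mrpl34 was 5.77 and 5.65 FPKM in 4sU RNA at 1 h, against 18.6 and 11.95 FPKM at 0 h (change -1.25 ± 0.37, adjusted p = 0.26). It was the gene of the 74 with the lowest change at 1 h, and it was called lower with the replicate number as a block (adjusted p = 0.019). By 4 h Mrpl34 stood at 39.0 and 18.3 FPKM, above its own 0 h value in both replicates (change 0.80 ± 0.37, adjusted p = 0.14; 0.017 with the block). Mrps6 was 7.69 and 5.74 FPKM at 1 h against 13.6 and 7.24 FPKM at 0 h, and its change at 1 h was -0.52 ± 0.36 (adjusted p = 0.59).

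With the replicate number as a block, 4 genes were called lower at 1 h in 4sU RNA, namely Mrpl34, Mrps25, Mrps16 and Mrpl24, and 2 were called higher, Mrpl52 and Mrps18b (5.42% and 5.21% of all genes). Without the block 0 were called. Mrps25 had 1.32 and 2.05 FPKM at 1 h, against 3.05 and 3.86 FPKM at 0 h, and Mrps16 had 30.6 and 26.2 FPKM at 1 h, against 50.3 and 38.8 FPKM at 0 h. Mrps25 shares 69.8% of its exon bases with Nr2c2 on the other strand.

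In the single total RNA library at 1 h, which belongs to replicate 2, 14 of the 74 genes were at least 2-fold lower than the mean of the 0 h libraries and 0 were higher, where 6.57% and 1.03% of all genes were. Mrps23 had 8.53 FPKM at 1 h, against 30.2 and 25.9 FPKM at 0 h, and Mrpl27 had 8.0 FPKM at 1 h, against 26.8 and 20.3 FPKM at 0 h. Mrpl12, which was higher in 4sU RNA at 1 h than at 0 h within each replicate, had 6.21 FPKM in this library, against 18.8 and 15.98 FPKM at 0 h. The library listed 55 genes at 0, and its depth is unknown. In the total RNA library at 2 h, of replicate 1, 1 of the 74 was at least 2-fold higher and 0 were lower (5.32% and 1.76% of all genes). These genes were chosen after their values were seen.

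RP showed no call at 1 h among the 74 (limma, 0 higher where 0.14% of all genes were called, 0 lower where 0% were; 2 of the 74 and 10.6% of all genes at an unadjusted p below 0.05; 0 with the block, where 1.42% of all genes were higher and 0.548% lower). The median change at 1 h was 0.11, against -0.04 over all genes.

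**Figure D3:**
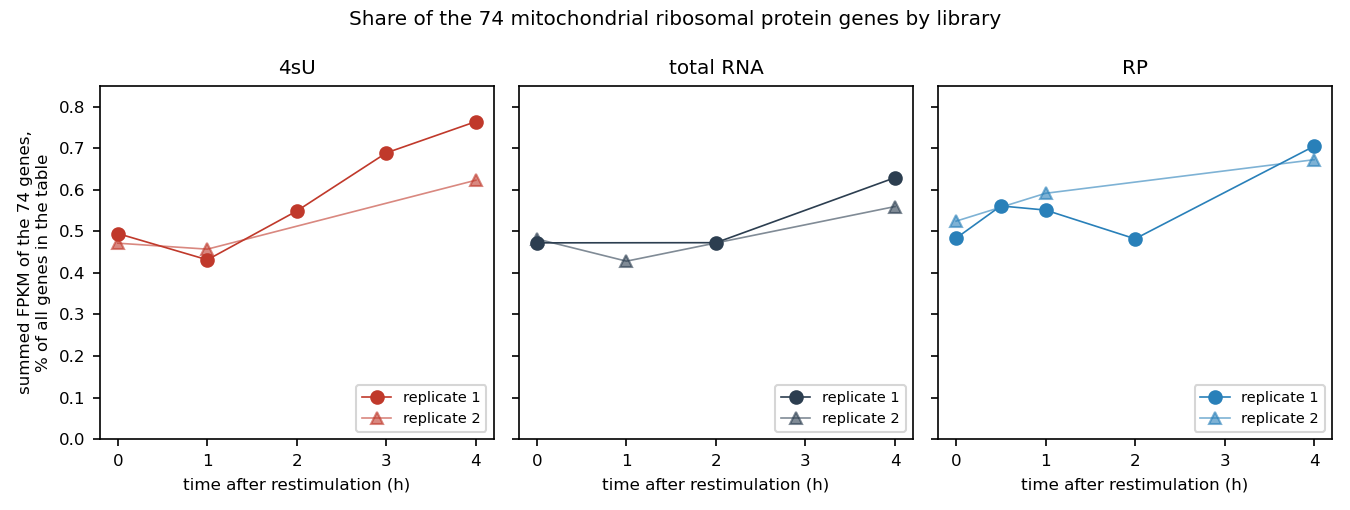
Summed FPKM of the 74 genes as a percentage of the summed FPKM of all 9420 genes (vertical axis) against hours after restimulation, in each library of 4sU RNA, total RNA and RP, with circles for replicate 1 and triangles for replicate 2. At 4 h each replicate stands above its own 0 h value in every panel, by most in 4sU replicate 1.

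Summed over the family, the 74 genes took 0.764% and 0.623% of the FPKM of the table in 4sU RNA at 4 h, against 0.495% and 0.472% at 0 h. In total RNA the share was 0.629% and 0.560% at 4 h, against 0.472% and 0.482% at 0 h. In RP it was 0.705% and 0.673% at 4 h, against 0.484% and 0.525% at 0 h. The groups did not overlap in any of the 3.

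The replicates differed in size of response. In 4sU RNA the median change of the 74 between 0 and 4 h was 0.69 within replicate 1, where 64 genes were above 0, and 0.23 within replicate 2, where 49 were. In total RNA the medians were 0.40 and 0.17, and in RP 0.43 and 0.16, in replicates 1 and 2. Over all genes they were -0.19 and -0.12 in 4sU RNA, -0.13 and -0.06 in total RNA, and -0.14 and -0.06 in RP. At 4 h, 66 of the 74 had more 4sU RNA in replicate 1 than in replicate 2, where 43.0% of all genes did, and 65 had more total RNA, where 54.2% of all genes did. In RP 36 of the 74 were higher in replicate 1 at 4 h (41.8% of all genes), against 23 at 0 h (52.1% of all genes), so the RP libraries differed more at 0 h. Interferon gamma (Ifng) was likewise higher in replicate 1, with 7580 FPKM of 4sU RNA at 4 h in replicate 1 and 2368 FPKM in replicate 2, against 101 FPKM and 45.4 FPKM at 0 h. The CD8 T cell list in 4sU RNA had 266 FPKM in replicate 1 and 86.7 FPKM in replicate 2 at 4 h, against 145 and 19.4 FPKM at 0 h, so that it was higher in replicate 1 at both times and its relative change was larger in replicate 2. Their part in the difference was not tested.

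The stalk of the large subunit holds Mrpl12, Mrpl10 and Mrpl11. Mrpl10 anchors the stalk and Mrpl11 lies at its base. Mrpl10 had 42.0 and 33.9 FPKM of 4sU RNA at 4 h, against 42.2 and 32.7 FPKM at 0 h (change 0.02 ± 0.22, adjusted p = 0.95), where Mrpl12 had changed by 1.74. Mrpl11 had 15.8 and 10.2 FPKM at 4 h, against 6.59 and 7.15 FPKM at 0 h (change 0.81 ± 0.23, adjusted p = 0.039). In RP, Mrpl10 had 49.8 and 57.0 FPKM at 4 h and 86.4 and 72.4 FPKM at 0 h (change -0.56 ± 0.20, adjusted p = 0.092, or 0.035 with the block), and Mrpl11 changed by -0.02 ± 0.34 (adjusted p = 0.97). The difference between these genes was not tested.

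Mrps18a, Mrps18b and Mrps18c are paralogues of bacterial S18, and the Mrps18a protein sits in the large subunit despite its name. Against the change of 1.98 in Mrps18b, Mrps18a had 15.4 and 13.9 FPKM of 4sU RNA at 4 h and 11.99 and 12.9 FPKM at 0 h (change 0.22 ± 0.18, adjusted p = 0.38). Mrps18c had 13.1 and 10.7 FPKM at 4 h and 13.5 and 15.1 FPKM at 0 h (change -0.25 ± 0.17, adjusted p = 0.30). In RP the changes were 0.51 ± 0.20 for Mrps18a (adjusted p = 0.11, or 0.044 with the block), 1.17 ± 0.31 for Mrps18b (adjusted p = 0.042) and -0.43 ± 0.22 for Mrps18c (adjusted p = 0.20). Only Mrps18b of the 3 was called without the block. Mrps12, which lies at the decoding site of the small subunit, changed by 0.08 ± 0.37 in 4sU RNA (adjusted p = 0.89), with 20.8 and 8.97 FPKM at 4 h and 14.7 and 11.4 FPKM at 0 h, so the replicates lay on either side.

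Genes that rose were found in both subunits and in both classes of ancestry. In 4sU RNA at 4 h, 12 of the 48 Mrpl genes and 5 of the 26 Mrps genes were called higher, with median changes of 0.42 and 0.39. Of the 43 with a bacterial counterpart 11 were called higher (median 0.49), and of the 27 specific to mitochondria 5 were (median 0.37). Among the 42 genes that share no exon with another annotated gene, 9 were called higher and 0 lower, and among the 32 that do, 8 were called higher and 2 lower. Of these 2, Mrpl58 shares 0.1% of its exon bases and Mrpl27 7.6%.

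At 0 h the family covered a wide range of levels. In 4sU RNA the highest were Mrpl49 at 46.0 ± 1.8 FPKM (SD, n = 2), Mrps16 at 44.5 ± 8.2, Mrpl18 at 42.5 ± 1.1 and Mrps23 at 41.9 ± 8.6. The libraries of each overlapped those of its neighbour in this order. The lowest were Mrps25 at 3.46 ± 0.57, Mrps28 at 3.36 ± 0.83, Mrpl13 at 2.48 ± 0.26 and Mrpl48 at 2.42 ± 0.30, and among these both libraries of Mrps28 lay above both of Mrpl13 while the other neighbours overlapped. The highest gene was 19.0 times the lowest. The median of the 74 was 13.1 FPKM, against 12.5 FPKM over all genes.

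In total RNA at 0 h Mrps16 was highest at 58.0 ± 5.3 FPKM, above Mrps21 at 44.6 ± 0.1, Mrpl18 at 43.3 ± 2.2 and Mrpl42 at 40.4 ± 5.3. Mrpl15 at 3.13 ± 0.34, Mrpl17 at 3.04 ± 0.21, Mrps25 at 2.52 ± 0.36 and Mrpl47 at 2.42 ± 0.16 were lowest. Mrpl17, near the bottom of this order, was called higher at 4 h in total RNA, and Mrpl15 was not (change 0.77, adjusted p = 0.065). Of 4sU over total RNA at 0 h, a ratio of levels from separately scaled libraries, Mrps18b had the highest at 2.55 and Mrpl42 the lowest at 0.481, with a median of 1.25 for the 74 and 1.52 for all genes.

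In RP at 0 h Mrps14 had 406.5 ± 15.9 FPKM, Mrps21 338 ± 38, Mrpl52 276 ± 34 and Mrpl33 223 ± 4. Mrpl38 at 15.6 ± 1.7, Mrpl48 at 12.3 ± 3.8, Mrps5 at 11.9 ± 0.0 and Mrpl23 at 0.300 ± 0.057 were the lowest. The median was 61.8 FPKM, against 21.3 FPKM over all genes. The gene lengths behind the FPKM are not given. Steps between low values fitted the coding length in 3 RP libraries and the summed exon length in 1 total RNA library, and could not be resolved in the other 20 libraries. The 74 have a median coding length of 610.5 bases, against 1392 for all genes, and a median exon length of 2541.5 bases, against 4501. Across the 74, the ratio of RP to total RNA went up with the ratio of exon to coding length (Spearman's rho 0.404, n = 74 genes, or 0.449 for the 73 without Mrpl23). Ratios of RP to total RNA are not read here as translation.

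The genes most like Mrpl12 over the 8 4sU libraries with 1 h of labelling, by Pearson's r of log2(FPKM + 1), were Mrpl20 and Mrpl16 at 0.989, Mrps18b at 0.983, Mrpl17 at 0.981 and Mrps7 at 0.969. In all, 21 of the other members had an r above 0.9. The share of all genes above this r is not given here, so the count is not read as particular to the family. These libraries share their times and replicates, so a common difference between replicates enters r.

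Many of these genes start back to back with another gene. An annotated protein-coding neighbour on the opposite strand, with its start from 500 bases inside to 1000 bases upstream, was found for 26 of the 74 (35.1%), against 16.8% of the 9400 protein-coding genes of the table. Both genes were tested in 21 pairs, and both were called in the same direction in 2 of them. Mrps27, a small subunit protein that can bind RNA, rose with Ptcd2 (changes 0.79 and 0.57). Mrpl27 fell with Eme1, which encodes part of a DNA endonuclease (changes -0.67 and -1.19). Of its exon bases, Mrpl27 shares 7.6% with Eme1 on the other strand. Without the strand setting, reads from the shared bases cannot be assigned to either gene alone. Of the neighbours 1 was called higher and 7 lower, where 14.4% and 18.9% of all genes were.

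Mrps18b lies 45 bases from Ppp1r10, a regulatory subunit of protein phosphatase 1. Mrps18b changed by 1.98 and Ppp1r10 by -0.58 ± 0.32 (adjusted p = 0.19). Among the 7 neighbours called lower were Ncapd2, a condensin subunit, at -1.80 beside Mrpl51 at -0.05, and Ska3, a kinetochore protein, at -1.43 beside Mrpl57 at 0.28. These neighbours were named after their values were seen.

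**Figure D4:**
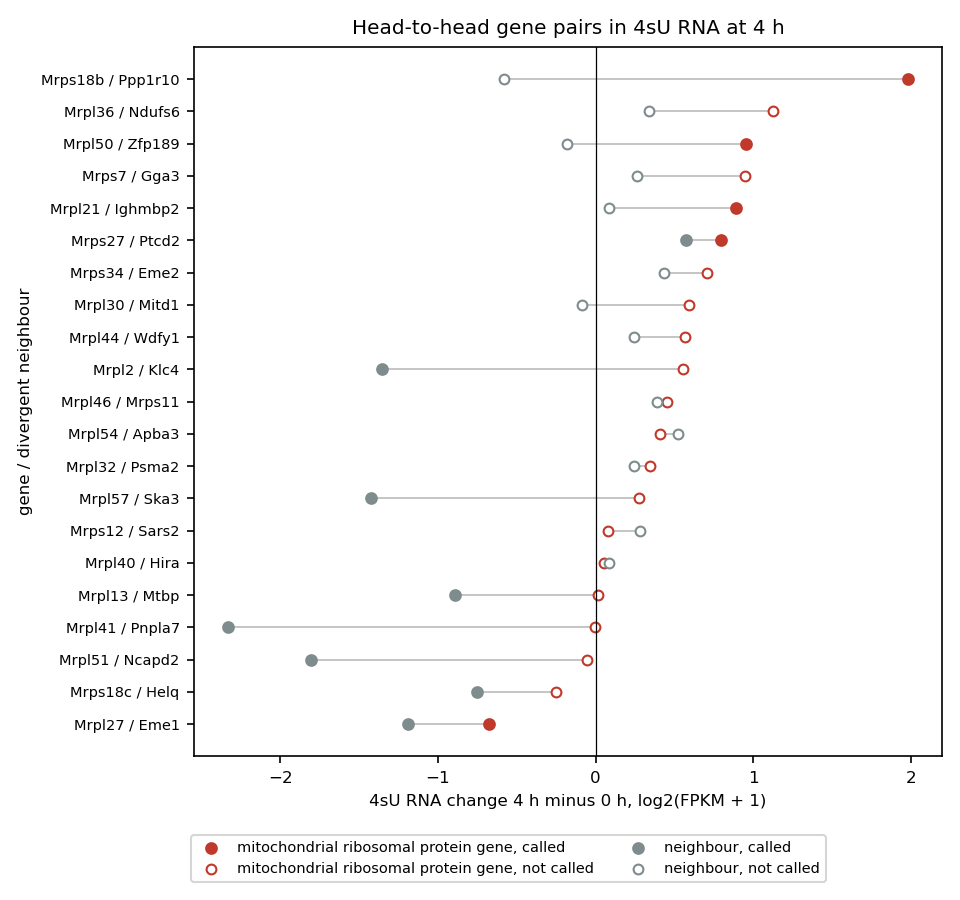
Change of 4sU RNA at 4 h minus 0 h on the log2(FPKM + 1) scale (horizontal axis) for 21 head-to-head pairs of a mitochondrial ribosomal protein gene (red) and its neighbour (grey), with filled circles for genes called at an adjusted p below 0.05 and a line joining each pair. In the top pair Mrps18b is at 1.98 and Ppp1r10 at -0.58.

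Other genes of the mitochondrial translation system were taken as lists, and their counts in 4sU RNA at 4 h stand against 14.4% of all genes called higher and 18.9% lower. Of the 5 measured subunits of the mitochondrial ribosome that carry other names, 2 rose in 4sU RNA at 4 h, Gadd45gip1 (0.89) and Ptcd3 (0.78), and 0 fell. Of 16 translation factors 3 rose, among them Lrpprc (0.92), which stabilises mitochondrial messenger RNA, and Mrrf (0.85), the ribosome recycling factor. Of 26 assembly genes 3 rose and 1, Mettl15, fell (-0.63), with C1qbp, a matrix protein that binds RNA, at 2.66 ± 0.25 (adjusted p = 0.0026) and Noa1, a GTPase of ribosome assembly, at 1.43 ± 0.19 (adjusted p = 0.0047).

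Of 17 mitochondrial aminoacyl-tRNA synthetases 5 rose, with Yars2 at 1.48 and Nars2 at 1.26, the enzymes that charge tyrosine and asparagine tRNA. Of 11 genes of mitochondrial DNA transcription and replication 2 rose and 1 fell, with Twnk, the helicase, at 1.47 and Polg2, the accessory subunit of the DNA polymerase, at -1.26. Twnk shares exon bases with Mrpl43 on the other strand. Of 21 import genes 13 rose and 0 fell, with the small chaperones of the intermembrane space Timm8a1 at 2.85 and Timm9 at 2.64. The median changes were 0.78 for the other subunits, 0.26 for translation factors, 0.05 for assembly, 0.28 for synthetases, -0.16 for the DNA list and 1.09 for import, against 0.40 for the 74 genes and -0.16 over all genes. These lists were chosen with results of these data known.

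In RP at 4 h the same lists had 1 of 5, 4 of 16, 4 of 25, 4 of 17, 3 of 11 and 8 of 21 members called higher and 0 lower, in the same order, against a share over the whole table of 12.1% higher and 12.9% lower. In total RNA the counts were 1 of 5, 0 of 16, 2 of 24, 3 of 17, 2 of 11 and 6 of 21 higher and 0 lower, against a share over the whole table of 6.47% higher and 7.02% lower. Under the block, 4sU RNA gave 3 higher and 0 lower among the other subunits, 5 and 3 among translation factors, 7 and 2 among assembly genes, 3 and 3 in the DNA list and 17 and 0 among import genes, where 23.3% of all genes were higher and 35.4% lower. Total RNA gave 2 and 0, 4 and 0, 6 and 0, 2 and 1, and 12 and 0 for these 5 lists under the block (16.6% and 23.3% of all genes). RP gave 2 and 0, 5 and 1, 7 and 0, 3 and 2, and 14 and 0 (21.3% and 26.7%). Of the synthetases 6 were called higher and 2 lower under the block in 4sU RNA, 4 and 2 in total RNA, and 6 and 4 in RP.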

How the data were processed

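RNA was measured in 24 libraries in 16 groups. The deposited values are FPKM, made by the authors from gene counts by featureCounts (Subread 1.4.6-p3) on GRCm38, per the submitters' processing notes. Not given in the sources used here are aligner, annotation, gene lengths and strand setting. Symbols, coordinates and exon overlaps came from GENCODE M21 (9412 of 9420 identifiers matched). No depth is stated. Steps between low values (up to 8 reads, tolerance 0.1 read) put total RNA 0 h replicate 2 at 4.87 M reads, and replicate 2 of RP at 8.85 M (0 h), 17.8 M (1 h) and 13.9 M (4 h). For the other 20 libraries depth could not be resolved.

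Log2(FPKM + 1) was fitted with limma 3.58.1 (R 4.3.3) with a trended prior variance, and p-values were adjusted by Benjamini-Hochberg over all genes with a mean of at least 1 FPKM. A fit held all times of 1 kind of library, without the short label, and interaction fits held both kinds. There were 3 residual degrees of freedom in 4sU and RP fits, 2 in total RNA and 5 in interactions. A time with 1 library was assumed to vary like the others. The pseudocount understates changes of low genes. The test was checked on simulated data, in which libraries varied independently, so a shared deviation of same-numbered libraries was not covered. The planted changes were all of 2 log2 units, in genes with a mean of at least 5 FPKM. Smaller changes, such as those called here, were not planted. Since no label says that replicates were separate cultures, a p-value covers the spread among these libraries, which may be technical.

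Same-numbered libraries deviated together from their group means (correlation 0.307 to 0.790, over 0.1 in all 28 pairs of replicated groups). The numbers were therefore taken to pair libraries, from the data and not the labels. The main fits did not use this pairing, which entered only with the replicate block. For Mrps18b in 4sU RNA at 2 h, the change was 1.54 without the block and 1.21 with it. Alternatives were a pseudocount of 0.1, no filter, a mean of at least 5 FPKM, median-of-ratios scaling, the replicate block and leaving out each library. Members and lists were chosen with earlier results of these data known. Genes named were, per kind of library, the 5 called genes with the largest rise and the 5 with the largest fall at 4 h whose libraries did not overlap, the 4 highest and 4 lowest at 0 h, up to 5 per direction called in an interaction, the Mrps18 paralogues, Mrpl10, Mrpl11, Mrpl12, Mrps12 and Mrpl34, and from each other list the 2 called genes with the largest change. Others appear as lists of calls, as the few genes behind a small count, or as chosen after their values were seen. A result for 1 gene of the other lists is not reported here.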

Additional observations from a re-analysis of the deposited data

How the results depend on the processing

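Counts of the 74 genes called were most sensitive to the replicate block and to single libraries. With the replicate block, 6 were called at 1 h in 4sU RNA (0 without it), 11 at 2 h (1), 26 at 3 h (9), 38 at 4 h (19), 22 in total RNA at 4 h (6) and 29 in RP at 4 h (14); it changed no count in RP at 1 h or in the interactions. Leaving out 1 library gave 0 to 0 at 2 h, 0 to 0 at 3 h and 3 to 25 at 4 h in 4sU RNA, 0 to 2 in total RNA and 2 to 8 in RP. Median-of-ratios scaling gave 12 in total RNA. The causes were not tested, and fits with a library left out also held fewer libraries. The 38 changes of single genes followed gave 342 values under the alternatives, of which 265 kept direction and call, 58 lost the call, 4 gained it and 15 changed sign. Sign changes were in genes that were not called. With scaling, Mrpl11 in RP and Mrpl10 in total RNA were both at 0.065. Leaving out 1 library at a time, 4sU changes ran from -0.157 to 0.200 for Mrpl10 and from -0.485 to 0.646 for Mrps12; RP changes from -0.388 to 0.343 for Mrpl11 and from -0.035 to 0.273 for Mrps12; and total RNA changes from -0.232 to 0.133 for Mrpl10, from -0.103 to 0.567 for Mrpl34, from -0.570 to 0.106 for Mrps12 and from -0.407 to 0.032 for Mrps18c. Depth is known for 4 libraries, so for low genes such as Mrpl48 the counting error is unknown.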

Other observations

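Mrpl23, a large subunit protein at the exit of the peptide tunnel, was almost absent from RP in 7 of 8 libraries, with 0.00 to 0.38 FPKM, but had 62.1 FPKM in the single RP library at 2 h. In 4sU RNA it had 5.66 to 10.4 FPKM and in total RNA 4.48 to 10.3 FPKM. It was the only gene of the table at 5 FPKM or more in the RP library at 2 h and under 1 FPKM in all other RP libraries. That library also listed 68 genes at 0, more than any other library. The change from 0 h to 4 h in RP was taken without the library at 2 h. The filter on low values and the trended prior variance did use that library.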
